A study of Sus scrofa with 13 samples.

Results

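The genes described here are 8 Krüppel-like factors, KLF2, KLF4, KLF6, KLF9, KLF10, KLF11, KLF13 and KLF15, taken by symbol from the 35670 genes of the count table. All 8 had a row and all passed the filter on low counts, as did 16481 genes in total. They were followed in 13 bulk RNA sequencing libraries from pig liver. Baseline comprised 2 libraries (1a and 2) from biopsies taken before any vascular clamping. The ischemic controls were 3 livers with 45 min of total vascular exclusion and 6 h of reperfusion that received no cells. A further 4 livers (arterial) had the same ischemia and reperfusion and were given 3 M human bone marrow-derived mesenchymal stromal cells (BM-MSC) per kg body weight through the hepatic artery, and 4 (portal) were given the same dose through the portal vein. All animals were purpose-bred female Yorkshire pigs under ketamine, midazolam and sufentanil anesthesia with laparotomy, and their age is not given in the sources used here. The labels do not name the lobe of a biopsy, nor whether a baseline library shares its pig with a later one. Nothing in the labels ties a library to an animal beyond its group and number, so p-values measure the spread between these libraries. For the ischemic control, arterial and portal groups, the paper's principal component plot describes each point as a separate pig. That description does not cover baseline.

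Krüppel-like factors are transcription factors that bind GC-rich and CACCC sequences through C-terminal zinc fingers. In endothelium KLF2 and KLF4 are induced by laminar shear stress and hold the vessel wall in an anti-inflammatory and anti-thrombotic state, so they are known as flow-responsive genes in the liver sinusoid. KLF6, KLF10 and KLF11 are early genes of injury and transforming growth factor beta signaling, whereas KLF9, KLF13 and KLF15 are tied to hormone and nutrient signals, with KLF9 and KLF15 being direct targets of the glucocorticoid receptor and KLF15 a regulator of amino acid breakdown and gluconeogenesis in hepatocytes.

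The libraries differed within the groups and between them. The total count on genes ranged from 18975413 to 35949178. At the depth of the shallowest library, between 13572 (portal 1) and 19388 (ischemic control 3) genes would have a read, and portal 4 (14252), arterial 1 (15385) and arterial 2 (15704) were the next lowest. The group medians were 18652 at baseline, 17187 in ischemic controls, 16715.5 in the arterial and 15811 in the portal group. Genes of the mitochondrial genome took 4.51% to 22.0% of the counts. The highest share was 6.99% at baseline, 7.94% in ischemic controls, 22.0% in the arterial and 16.0% in the portal group. The part of detection and mitochondrial share in the comparisons with infused livers was not tested. Hepatocyte markers were present in all libraries, with ALB between 15963 and 75017 CPM (counts scaled to a common library size), as the tissue label has it. Stromal markers summed to 137 to 1407 CPM, cholangiocyte markers to 10.4 to 48.0 and erythroid markers to 34.2 to 881. Ischemic control 2, arterial 1, portal 1 and portal 4 lay apart on the first principal component in an earlier analysis of these data, and fold changes of KLF2 and KLF15 are given with and without them. Values below are normalized counts (counts divided by DESeq2's size factors, mean ± SD) unless stated otherwise, and fold changes are on the log2 scale, with their standard errors (SE), from the quasi-likelihood test of edgeR with all 13 libraries in 1 fit. Adjusted p-values are Benjamini-Hochberg values of that edgeR test unless another tool is named.

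Positions are from the RefSeq annotation of Sscrofa11.1, and 3 of the 8 genes share a chromosome. KLF13 (143499136 to 143540233), KLF9 (223723613 to 223747661) and KLF4 (248604817 to 248609574) are on chromosome 1. KLF2 is on chromosome 2 (61270733 to 61273037), KLF11 on chromosome 3 (126419011 to 126429890) and KLF10 on chromosome 4 (34430132 to 34435990). KLF15 is on chromosome 7 (53877813 to 53890558) and KLF6 on chromosome 10 (66488445 to 66497830).

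To see how these genes stood after ischemia and reperfusion, the ischemic controls were first compared with baseline. KLF2 and KLF15 were the members that stood highest above baseline, KLF11 and KLF6 had lower means, and KLF10 was at a similar level. Of the 16481 genes, 0 (0%) were called by edgeR at an adjusted p of 0.05. Without adjustment 720 genes (4.37%) were under 0.05, and DESeq2 fitted to the 13 libraries called 5. Of the 8 members, 1 (KLF2) had an unadjusted p under 0.05. The 2 groups did not overlap for 3 members (KLF2, KLF13 and KLF15, all higher in controls), against 31.1% of all genes tested. The median log2 fold change was 0.34 over the 8 members and 0.00 over all genes tested, with 5 members higher and 3 lower.

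KLF2, the shear stress factor of endothelium, was at 173 and 171 in baseline libraries 1a and 2 and at 512, 737 and 1271 in ischemic controls 1 to 3. The 2 baseline values lay close together, and each control lay well above them. The means were 172 ± 1.33 (SD, n = 2) and 840.1 ± 390.0 (SD, n = 3), a log2 fold change of 2.28 ± 0.82 (SE, unadjusted p = 0.0138, edgeR adjusted p = 0.978). The two-sided exact permutation test gave p = 0.1, the smallest value that 2 libraries against 3 allow. Leaving out single libraries gave log2 fold changes between 1.88 (without ischemic control 3) and 2.52 (without ischemic control 1). Fitted with DESeq2 to the 5 baseline and control libraries alone, where 166 of 16294 genes (1.02%) were called, KLF2 passed the threshold (adjusted p = 0.00885).

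In the infused livers KLF2 was at 879, 426, 294 and 719 in arterial 1 to 4 and at 1369, 188, 161 and 601 in portal 1 to 4. Portal 2 and 3 therefore sat at the baseline level, whereas portal 1 was the highest of all 13 libraries. The order of the group means was ischemic control, then portal (579.7 ± 564) and arterial (579.6 ± 267), then baseline, and the 3 upper groups overlapped. Across all 11 livers at 6 h, the log2 fold change against baseline was 1.89 ± 0.73 (SE, unadjusted p = 0.0212, edgeR adjusted p = 0.860), and 10 of the 11 livers exceeded both baseline values (two-sided exact permutation p = 0.0513, where 0.0128 is the smallest possible). Without the 4 libraries that lay apart, the log2 fold change of KLF2 was 1.30 at 6 h and 2.38 in controls. The groups overlapped for KLF2, and 0 of the 8 members separated them, against 7.27% of all genes. KLF2 was again the single member with an unadjusted p under 0.05 in this comparison, against 4.78% of all genes. Calls at the adjusted threshold were 0 (0%) by edgeR and 14 by DESeq2 fitted to the 13 libraries, with 0 members among them. Leaving out either baseline library brought the number of members under an unadjusted 0.05 to 0, in this comparison and in that of controls with baseline.

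**Figure D1:**
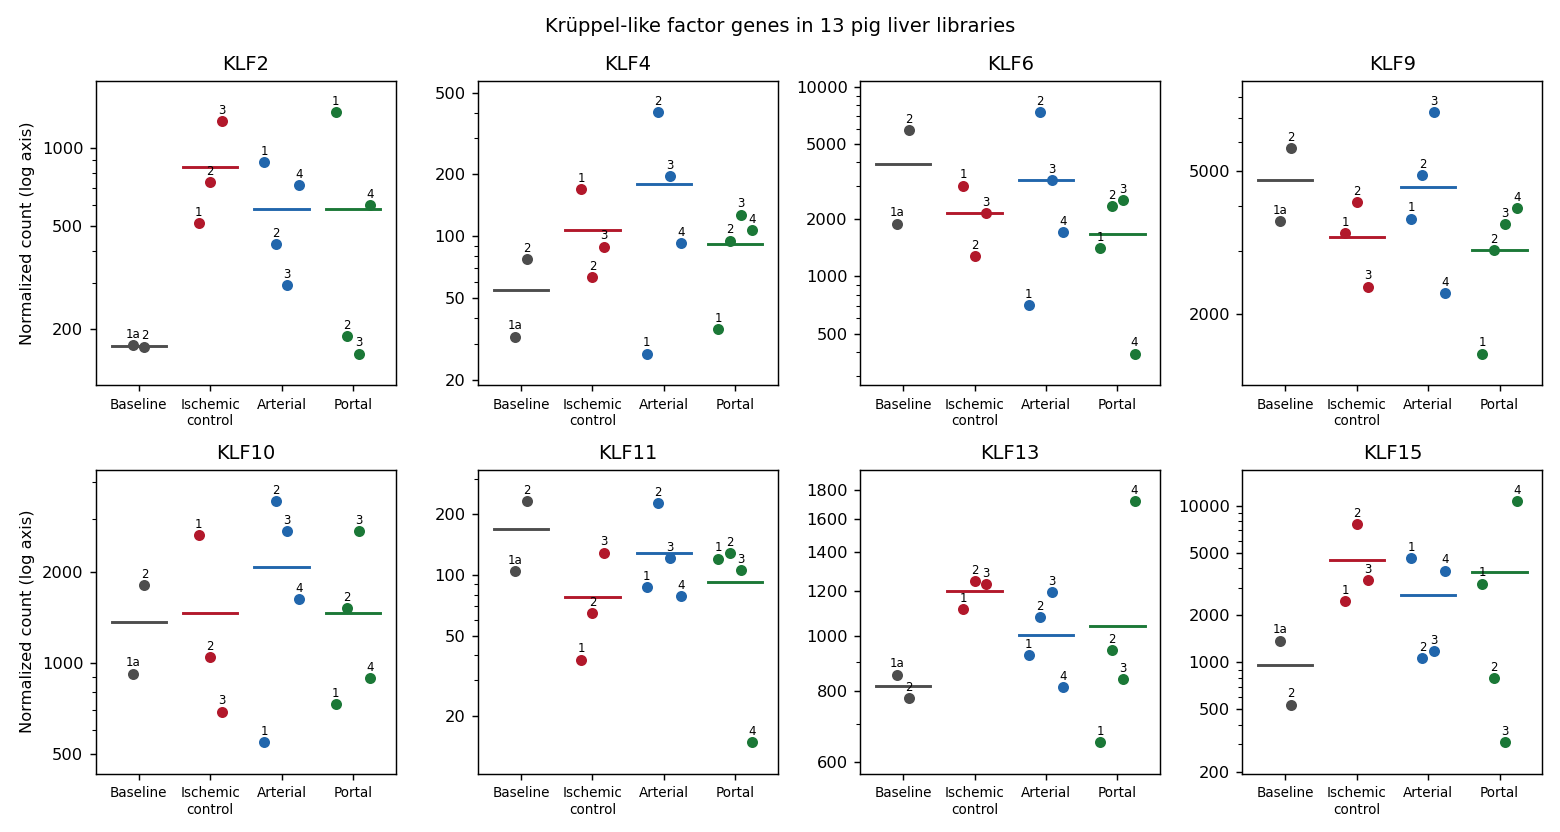
Normalized counts of the 8 genes in each library on log axes, 1 panel per gene, with points numbered by replicate and a line at each group mean. The 2 baseline libraries lie together for KLF2 below all 3 ischemic controls, and KLF15 spans 308 to 10782.5 within the portal group.

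In a bulk biopsy, fewer cells of a type and less RNA per cell cannot be told apart. Markers of endothelium were therefore read beside KLF2. Of the 12 markers listed 11 had a row, none was at 0 in any library, and their summed level was 789 to 804 CPM at baseline, 455 to 846 in ischemic controls, 496 to 1008 in the arterial and 358 to 961 in the portal group. Between controls and baseline 4 of the 11 were higher and 7 lower, with a median log2 fold change of -0.39. KLF2 counts amounted to 0.918% and 0.750% of the endothelial marker counts in the baseline libraries, 4.31%, 2.62% and 6.61% in ischemic controls 1 to 3, 6.25%, 2.51%, 2.07% and 2.80% in arterial 1 to 4, and 5.50%, 1.80%, 1.29% and 2.92% in portal 1 to 4. On this ratio, which was chosen after the values were seen and not tested, all 11 livers at 6 h lay above both baseline libraries. In portal 2 and 3 KLF2 itself was at the baseline level, and their endothelial marker sums (358 and 423 CPM) were the lowest of the 13 libraries. Over all livers at 6 h, 9 of the 11 endothelial markers were lower than at baseline, with a median log2 fold change of -0.55. Leukocytes also contain KLF2. The 10 leukocyte markers with a row summed to 288 to 536 CPM at baseline and 466 to 604 in controls, with 8 higher and 2 lower. Erythroid markers were higher too, 4 of 4 tested, with a median log2 fold change of 1.96, and HBB, the beta-globin gene, was at 3.13, or 0.81 without ischemic control 2. The part of these cells in the KLF2 difference was not tested.

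**Figure D2:**
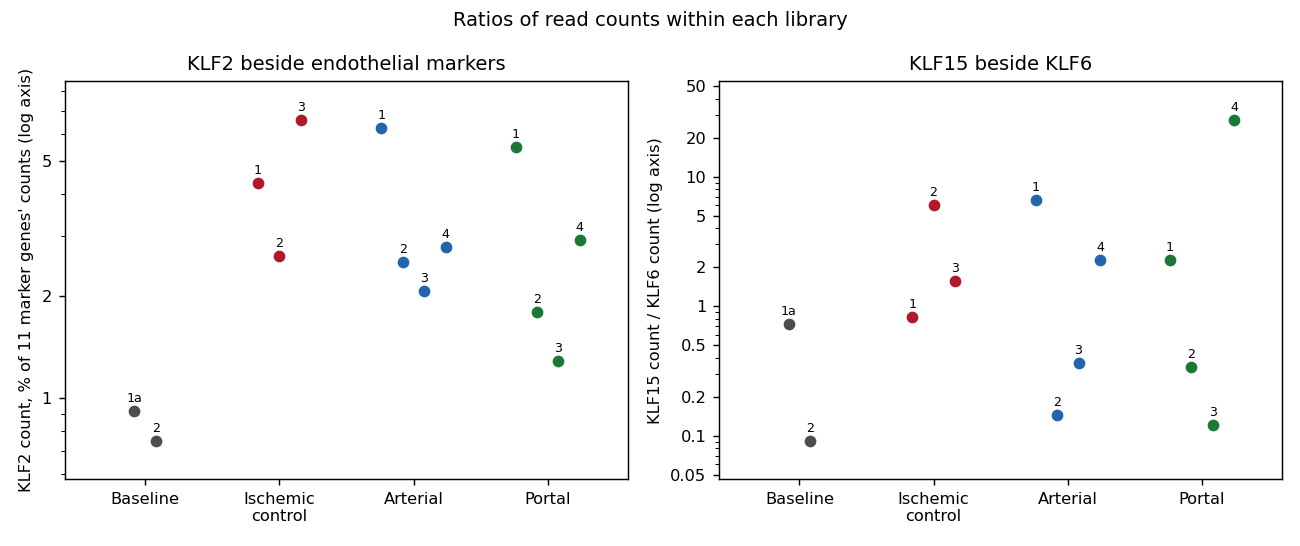
Ratios of read counts within each library on log axes, KLF2 as a percent of the summed counts of 11 endothelial marker genes (left) and KLF15 divided by KLF6 (right), with points numbered by replicate. On the left the 2 baseline livers are the lowest of the 13, and on the right portal 4 at 27.6 and portal 3 at 0.122 mark nearly the whole range.

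KLF4, the second flow-responsive factor, did not follow KLF2 over the 13 libraries. Its normalized counts were 32.4 and 77.0 at baseline, 170.1, 63.0 and 88.9 in ischemic controls 1 to 3, 26.8, 401, 196 and 92.2 in arterial 1 to 4 and 35.2, 95.3, 127 and 107 in portal 1 to 4. All 4 groups overlapped, and arterial 1 and portal 1, which were high for KLF2, were among the 3 lowest for KLF4. The log2 fold change was 1.00 ± 0.97 (SE) for controls against baseline and 1.15 ± 0.86 for all livers at 6 h (unadjusted p = 0.315 and 0.205, edgeR adjusted p = 0.978 and 0.868). Single libraries moved both values, the first to 0.46 without ischemic control 1 and 1.71 without baseline 2, and the second to 0.65 without baseline 1a and 1.84 without baseline 2. Without the 4 libraries that lay apart, KLF4 was at 1.28 in controls (unadjusted p = 0.0875, edgeR adjusted p = 0.506). At 6 h it was at 1.48 in that fit (unadjusted p = 0.0303, edgeR adjusted p = 0.443), beside 1.30 for KLF2. The count ratio of KLF2 to KLF4 ran from 1.06 in arterial 2 to 38.9 in portal 1. KLF4 is a low-count gene here, with 28 to 432 reads per library.

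KLF15, the glucocorticoid-responsive regulator of amino acid and glucose metabolism, had the widest range of the 8. It was at 1382 and 538 in baseline 1a and 2, and at 2463, 7708 and 3364 in ischemic controls 1 to 3, so that the groups did not overlap. The means of 959.8 ± 596 (SD, n = 2) and 4512 ± 2805 (SD, n = 3) gave a log2 fold change of 2.19 ± 1.17 (SE, unadjusted p = 0.0804, edgeR adjusted p = 0.978, and exact permutation p = 0.1). It was between 1.63 without ischemic control 2 and 3.04 without baseline 1a, and 1.61 without the 4 libraries that lay apart. DESeq2 over the 5 libraries called it (adjusted p = 0.0461).

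The infused livers did not keep that separation. KLF15 was at 4649.6, 1068, 1184 and 3877 in arterial 1 to 4 and at 3194, 792, 308 and 10782.5 in portal 1 to 4. In each route 2 livers sat within the range of the baseline libraries or below it, and 2 sat within the range of the controls or above it. For all livers at 6 h against baseline the log2 fold change was 1.84 ± 1.05 (SE, unadjusted p = 0.0994, edgeR adjusted p = 0.860), and 0.63 without the 4 libraries that lay apart, which hold the 3 highest KLF15 values. It was 1.27 without baseline 2 and 2.69 without baseline 1a. The group means ran from ischemic control to portal (3769 ± 4843), arterial (2695 ± 1839) and baseline, and no 2 neighbors in that order differed by more than their spread.

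KLF9, the basic transcription element binding factor that responds to glucocorticoid and thyroid hormone, was among the steadier members. It was at 3618 and 5782 at baseline and at 3353, 4085 and 2381 in ischemic controls 1 to 3, which overlap. The log2 fold change was -0.53 ± 0.53 (SE), and -0.20 without baseline 2. Arterial livers 1 to 4 were at 3681.5, 4852, 7270.1 and 2283, and portal livers 1 to 4 at 1549, 3006.5, 3556 and 3943. The highest liver was arterial 3 and the lowest portal 1.

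KLF13, a relative of KLF9 first studied in T lymphocytes, varied least. It was at 855 and 777 at baseline and at 1112, 1249 and 1232 in the controls, which were all higher. The log2 fold change was 0.55 ± 0.43 (SE, unadjusted p = 0.224), and with the infused livers added the groups overlapped again. Arterial 1 to 4 were at 924, 1079, 1195 and 813, and portal 1 to 4 at 651, 943, 839.7 and 1722. Its SD over the 13 libraries was 0.38 on the log2 CPM scale, lower than in all but 6.75% of the genes tested, whereas the SD of KLF15 was 1.48, above 81.5% of them.

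KLF6, an immediate early factor of hepatic stellate cells and hepatocytes after injury, was at 1901 and 5899 at baseline and at 3013, 1284 and 2161 in ischemic controls 1 to 3. The baseline libraries lay 3.10-fold apart, and 2 of the 3 controls fell between them. The log2 fold change of -0.83 ± 0.87 (SE) turned to 0.155 without baseline 2. Arterial 1 to 4 were at 707, 7338, 3229 and 1708 and portal 1 to 4 at 1412, 2349.9, 2527 and 391. The highest and lowest livers of all, arterial 2 and portal 4, were both infused.

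KLF10 and KLF11, the TGF-beta-inducible early genes, showed the same overlap. KLF10 was at 922 and 1813 at baseline, at 2659, 1049 and 690.2 in controls 1 to 3, at 545, 3447, 2732 and 1627 in arterial 1 to 4 and at 730.0, 1517, 2739 and 889 in portal 1 to 4. Both baseline values lay within the range of each other group. The log2 fold change of controls against baseline was 0.13 ± 0.78 (SE), turning to -0.69 without ischemic control 1. KLF11 was at 105 and 233 at baseline, at 37.97, 64.8 and 129 in controls, at 87.4, 228, 121 and 78.6 in arterial 1 to 4 and at 121, 128, 105 and 14.7 in portal 1 to 4. Its log2 fold change was -1.12 ± 0.84 (SE, unadjusted p = 0.203, edgeR adjusted p = 0.978). Single libraries moved this value to between -1.70 (ischemic control 3 left out) and -0.48 (baseline 2 left out). KLF11 rests on 12 to 246 reads per library, the 12 being those of portal 4.

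**Figure D3:**
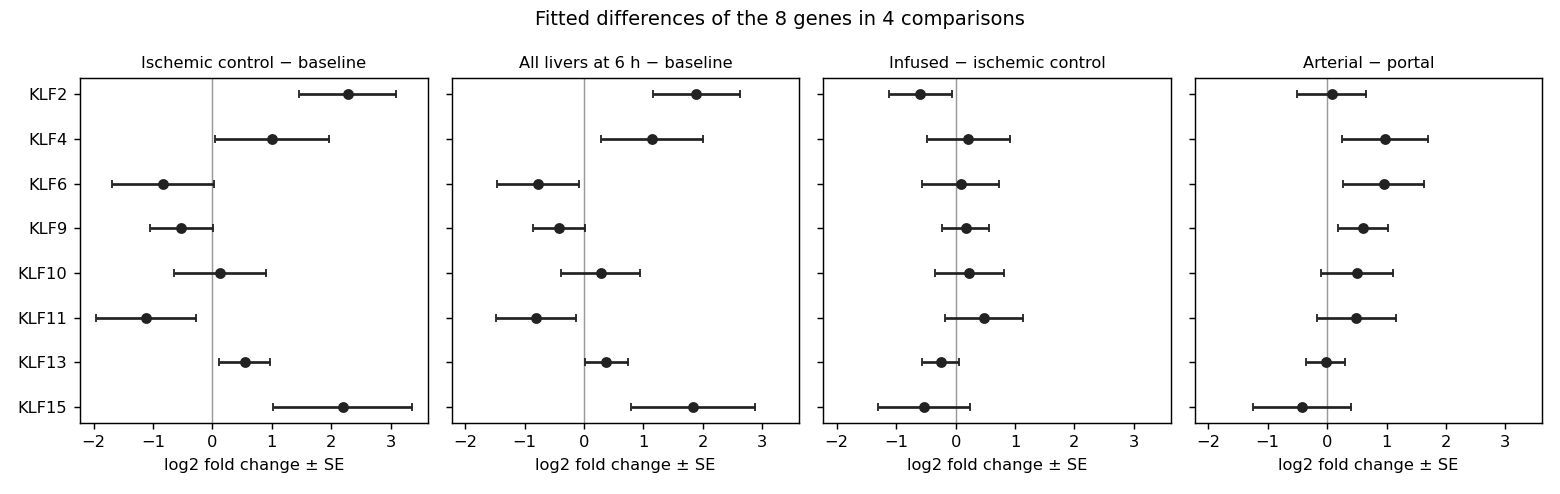
Log2 fold changes (x axis) of the 8 genes with their standard errors from edgeR's quasi-likelihood fit, 1 panel per comparison. KLF2 at 2.28 and KLF15 at 2.19 lie farthest from 0 for ischemic controls against baseline, and no member lies beyond 1.00 in either direction in the 2 panels on infusion.

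Next, the 8 infused livers were compared with the 3 ischemic controls to see whether BM-MSC infusion moved these genes. No member was detectably different. Calls over all genes were 0 (0%) by edgeR and 1 by DESeq2 fitted to the 13 libraries, and 353 genes (2.14%) were under 0.05 without adjustment. None of these was a member. The groups did not overlap for 0 members, against 0.564% of all genes. Log2 fold changes ran from -0.59 ± 0.54 (SE) for KLF2 and -0.53 ± 0.77 for KLF15 to 0.48 ± 0.65 for KLF11, each with an edgeR adjusted p of 1.00. The mean of KLF2 was 579.6 ± 408 (SD, n = 8) after infusion and 840.1 ± 390.0 (SD, n = 3) in controls, and that of KLF15 3232 ± 3440 (SD, n = 8) and 4512 ± 2805 (SD, n = 3). Single livers set the size of both differences. For KLF2 it was -0.20 without ischemic control 3 and -0.995 without portal 1, where it was the 1 member under 0.05 before adjustment. For KLF15 it was 0.06 without ischemic control 2 and -1.23 without portal 4. Without the 4 libraries that lay apart the differences were larger, -1.62 for KLF2 (unadjusted p = 0.00123, edgeR adjusted p = 0.311) and -1.46 for KLF15 (unadjusted p = 0.0189, edgeR adjusted p = 0.462). These comparisons share their controls with that of controls against baseline, so a value in 1 control library enters both.

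Route was compared directly between the 4 arterial and the 4 portal livers. Calls were again 0 (0%) by edgeR and 1 by DESeq2 fitted to the 13 libraries, with 396 genes (2.4%) under 0.05 before adjustment. Among the 8 members 0 were called by either tool, 0 had an unadjusted p under 0.05, and 0 separated the routes without overlap, against 1.41% of all genes. For 6 members the log2 fold change was above 0 (higher by arterial infusion), with 0.97 ± 0.73 (SE) for KLF4, 0.95 ± 0.68 for KLF6 and 0.61 ± 0.42 for KLF9 as the largest. All 3 were smaller without the highest arterial liver, to 0.24 for KLF4 and 0.21 for KLF6 without arterial 2 and to 0.25 for KLF9 without arterial 3. For KLF15 the log2 fold change of -0.42 ± 0.83 became 0.98 without portal 4. For KLF2 it was 0.08 ± 0.58, with means of 579.6 and 579.7 in the 2 routes, and 0.89 without portal 1. Without the 4 libraries that lay apart, 2 members came under 0.05 before adjustment, both higher by arterial infusion. These were KLF2 at 1.44 (unadjusted p = 0.00908, edgeR adjusted p = 0.994) and KLF15 at 1.86 (unadjusted p = 0.0156, edgeR adjusted p = 0.994).

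Most of the variation in these genes lay between livers of the same group. The share of the variance of log2 CPM that lay between the 4 groups was 43.5% for KLF2, 23.7% for KLF15, 23.3% for KLF9, 22.6% for KLF13, 22.0% for KLF11, 17.0% for KLF6, 14.5% for KLF4 and 4.98% for KLF10. The median over the 8 was 22.3%, and that over all genes tested 20.9%. Such a share is not corrected for the number of groups, so spread between libraries alone also yields part of it. The ratio of the highest to the lowest normalized count over the 13 libraries was 35.0 for KLF15, 18.7 for KLF6, 15.8 for KLF11, 15.0 for KLF4, 8.53 for KLF2, 6.32 for KLF10, 4.69 for KLF9 and 2.65 for KLF13.

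The livers at the ends of these ranges recurred. Portal 4 had the highest KLF15 and KLF13 and the lowest KLF6 and KLF11 of the 13 libraries. Arterial 2 had the highest KLF4, KLF6 and KLF10, and its mitochondrial share of 22.0% was the highest of the 13 libraries. Arterial 1 was the lowest for KLF4 and KLF10 and the second lowest for KLF6, and portal 1 was the highest for KLF2 and the lowest for KLF9 and KLF13. These 4 libraries were also the ones with the fewest genes detected, and the part of detection and mitochondrial share in these extremes was not tested. Summed hepatocyte markers were 42426 CPM in portal 4 and 38582 in portal 1, the lowest 2 of the 13 libraries, and 66702 in arterial 1 and 93198 in arterial 2.

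KLF15 was set beside KLF6, the member farthest from it in profile over the 13 libraries. The count ratio of KLF15 to KLF6, which does not depend on the scaling of a library, was 0.727 and 0.0912 at baseline, 0.817, 6.01 and 1.56 in ischemic controls 1 to 3, 6.58, 0.146, 0.367 and 2.27 in arterial 1 to 4 and 2.26, 0.337, 0.122 and 27.6 in portal 1 to 4. All 3 controls lay above both baseline libraries, and both infusion routes covered values below, within and above the control range of 0.817 to 6.01. This ratio was chosen after the values were seen.

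**Figure D4:**
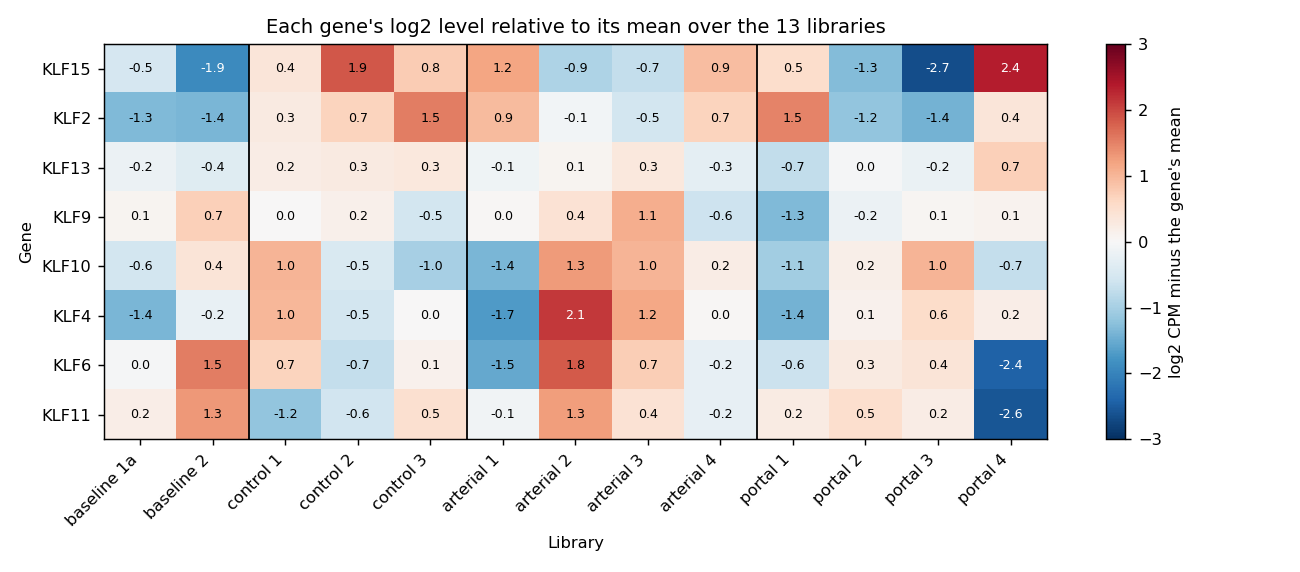
Log2 CPM of each gene minus its mean over the 13 libraries (color scale and printed values), genes in rows and libraries in columns, with black lines between groups. KLF15 and KLF2 are below their means in both baseline livers and above them in the 3 controls, and portal 4 pairs the highest KLF15 with the lowest KLF6 and KLF11.

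Likeness between profiles was measured as the root mean square difference of the centered log2 CPM over the 13 libraries, where 0 would be the same pattern. Among the 28 pairs of members, KLF9 and KLF13 (0.53) and KLF4 and KLF10 (0.56) were the closest, followed by KLF6 with KLF11 (0.73) and with KLF10 (0.75). KLF2 was closer to KLF15 (0.89) than to any other member and was 1.64 away from KLF4. The measure is not scaled, so genes that vary little lie close to each other. A flat line lay 0.36 from KLF13, 0.58 from KLF9, 1.03 from KLF2 and 1.05 from KLF4. KLF13 was thus nearer to a flat line than to KLF9. KLF6 and KLF15 were the farthest pair at 2.38. Beyond the family, the nearest of all genes tested were DYNLL1 (0.42), EGLN3 (0.43) and CASTOR2 (0.47) for KLF2, RHOB (0.44) and ARID5B (0.56) for KLF4, ZBTB1 (0.48) and NEDD9 (0.49) for KLF6, and SEC24A (0.33), TMED5 (0.37) and SEC22B (0.39) for KLF10. EGLN3 is a prolyl hydroxylase induced by hypoxia, and RHOB is a small GTPase of the immediate early kind. For KLF9 these were APAF1 (0.31), BAG5 (0.31) and GOLGB1 (0.33), for KLF11 SELENBP1 (0.46), SGCE (0.50) and BRAP (0.53), and for KLF13 NAGPA (0.23) and SHMT1 (0.23). For KLF15 the nearest gene with a symbol was NALF2 (0.66). The livers share library depth and detection, so that these distances are descriptive.

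Genes around KLF2 and KLF4 in flow sensing were taken from 2 lists. Of 12 upstream genes (the PIEZO1 channel, the MEKK2/3, MEK5 and ERK5 kinases, MEF2 factors and the CCM complex), 0 passed the adjusted or unadjusted threshold for ischemic controls against baseline, with 4 higher, 8 lower and a median log2 fold change of -0.37. MAP2K5, the gene of MEK5, was at 354 in controls and 165 at baseline (log2 fold change 1.07, and 0.63 without ischemic control 2). MAPK7, which encodes ERK5, was at 716 in controls and 399 at baseline (log2 fold change 0.82 ± 0.47, SE, and 0.37 without baseline 2). These groups did not overlap for MAPK7, as for 31.1% of all genes tested in either direction. In the infused livers MAPK7 was at 329 and all 8 lay below the 3 controls (log2 fold change -1.13, unadjusted p = 0.00345, edgeR adjusted p = 1.00). Infused livers and controls did not overlap for 0.564% of all genes tested. MAPK7 had the smallest unadjusted p of the 12 upstream genes in both comparisons, which share their 3 controls. Of 8 tested targets of KLF2 and KLF4, 3 were higher and 5 lower in controls than at baseline. TEK, the angiopoietin receptor, was at 216 in controls against 557 at baseline (log2 fold change -1.34 ± 0.69, SE). Between routes, TEK (320.04 arterial, 131 portal) and EDN1 (108 and 17.2), the endothelin gene, had an unadjusted p under 0.05, higher by arterial infusion. Endothelial markers were higher by the same route for 8 of 11 genes and lower for 3 (median log2 fold change 0.45). Their summed level had a median of 514 CPM in the arterial and 603 CPM in the portal group. KDR was at 1.05 and LYVE1 at 0.75, and these became 0.75 and 0.34 without arterial 4. The part of the endothelial markers in the TEK and EDN1 values was not tested. The log2 fold changes of 1.28 for TEK and 2.59 for EDN1 became 1.01 without portal 1 (unadjusted p = 0.0793) and 2.13 without arterial 4 (unadjusted p = 0.112). EDN1 had no read in portal 1 and 4, the libraries with the fewest genes detected.

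Of 8 tested glucocorticoid response genes, 5 were higher and 3 lower in ischemic controls than at baseline, and 2 had an unadjusted p under 0.05 while 0 had an adjusted one. These were DUSP1, a phosphatase of MAP kinases, at 10982 against 1778 (log2 fold change 2.58 ± 0.93, SE), and PER1, a clock repressor, at 6639.5 against 2212 (1.55 ± 0.68). Ischemic control 2 was the highest for both, with DUSP1 at 4423, 24585 and 3938 in controls 1 to 3. Without it the log2 fold changes were 1.27 for DUSP1 (unadjusted p = 0.129) and 1.05 for PER1 (unadjusted p = 0.151). NR3C1, the glucocorticoid receptor gene, and SGK1 went the other way (log2 fold changes -0.93 and -1.33, unadjusted p = 0.0511 and 0.0809). The groups did not overlap for 2 genes that were higher and 2 that were lower, against 31.1% of all genes tested in either direction. In infused livers against controls 6 of the 8 were lower, with a median log2 fold change of -0.34 against -0.02 over all genes. TAT, tyrosine aminotransferase, was at 19588 after infusion and 51011 in controls (log2 fold change -1.42, unadjusted p = 0.00639), and FKBP5, a chaperone of the glucocorticoid receptor, at 3495 and 5824 (-0.78, unadjusted p = 0.0438). Without ischemic control 1 these were -0.92 for TAT (unadjusted p = 0.0886) and -0.19 for FKBP5 (unadjusted p = 0.606). Of 6 tested genes of amino acid catabolism 3 were higher and 3 lower in controls than at baseline. BCAT2, the mitochondrial branched-chain aminotransferase and a known KLF15 target, was at 3785 in controls and 1049 at baseline (1.80 ± 0.79, unadjusted p = 0.0387), and HPD at 21533 and 6682 (1.64 ± 0.89). In controls 1 to 3 BCAT2 was at 1281, 8006 and 2068, and without ischemic control 2 the log2 fold changes were 0.70 for BCAT2 (unadjusted p = 0.327) and 0.53 for HPD.

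The TGF-beta list, which belongs with KLF10 and KLF11, had 3 of 11 genes higher and 8 lower in controls than at baseline, with 0 at an unadjusted p under 0.05. TGFB1 was at 1426 against 707 and TGFB2 at 23.9 against 81.6 (log2 fold change -1.75, and -0.80 without baseline 2). Immediate early genes, a class that KLF2, KLF4, KLF6 and KLF10 are often counted with, had 11 of 13 higher in controls than at baseline (median log2 fold change 0.83), 2 of them with an unadjusted p under 0.05. Over all 16481 genes tested, 8280 were higher, and 4.37% had an unadjusted p under 0.05 in either direction. NR4A1 was at 1010.0 against 177 and JUNB at 9676 against 3945, with log2 fold changes of 2.50 and 1.28, the latter 0.80 without ischemic control 2 (unadjusted p = 0.135). In infused livers against controls 11 of the 13 were lower (median -0.83), 3 with an unadjusted p under 0.05, among them JUNB at 4209 against 9676 and JUN at 2223 against 4985. Over all genes tested 8591 were lower, and 2.14% were under 0.05 in either direction. Both comparisons rest on the same 3 ischemic controls, so a high value in a control enters each of them. Without ischemic control 2 the log2 fold change of JUNB went from -1.21 to -0.73 (unadjusted p = 0.0740). By edgeR, 0 genes of these lists were called after adjustment. The 8 members in infused livers against controls had a median of 0.13, with 5 higher and 3 lower.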

How the data were processed

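Bulk RNA sequencing of 13 pig liver libraries was analysed from 1 table of raw counts. The authors removed low-quality and adapter reads, mapped the others to Sscrofa11.1 with HISAT2 and deposited whole-number counts per gene from FeatureCounts with the Ensembl annotation. Libraries were poly-T selected and non-directional, so a read from an antisense transcript cannot be told from one of the gene itself. Tool versions and the handling of multi-mapping reads are not given in the sources used here. Each column was assigned to its sample by the sample description, 0 columns were left over, and no 2 libraries of a group were copies (smallest chi-square per gene 60.3).

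Members were found by symbol, and members and gene lists were chosen with earlier results of these data known. The genes named are the members, the 2 genes of each list with the smallest unadjusted p in a comparison described, and the 3 genes nearest to each member in profile (of which those without a symbol are not named). NR3C1 and SGK1 were named besides, after the values were seen, as glucocorticoid response genes that were lower in controls. Lists of stromal, cholangiocyte and erythroid markers were counted alongside. TSC22D3 had no row under its symbol. The result for 1 gene of the lists is not reported here. Tests used edgeR 4.0.16 in R 4.3.3 (filterByExpr, TMM, quasi-likelihood test, Benjamini-Hochberg over 16481 genes, threshold 0.05), with the 4 groups as the only term. All livers at 6 h, or all infused livers, were compared by the equal-weight mean of their group coefficients. Standard errors were obtained as the log2 fold change divided by the square root of the F statistic. Log2 CPM values used TMM-scaled libraries and a prior count of 2. Exact permutation tests were two-sided on log2(normalized count + 1). DESeq2 1.42.0 and limma 3.58.1 (voom) served as alternatives. Fits of the named list genes with single libraries left out were added after the data were seen. The edgeR test was tested on simulated data first. Counts are reads without molecular identifiers, and intervals from them would cover counting error only. A count of 0 allows up to 3 reads. Transcript lengths were not used here, so levels are not compared between genes.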

Additional observations from a re-analysis of the deposited data

Results flagged for a closer look

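Each member was examined for a library far from the rest of its group in the arterial and portal groups of 4, on the log2(normalized count + 1) scale, which makes 16 groups of values. KLF11 in portal 4 was at 14.7 normalized counts, and the gap to the next portal liver was 0.908 of the whole range of the group, above Dixon's critical value for 4 samples. By chance 5% of such groups would stand out this way. Portal 4 also had the second lowest number of genes detected, and the part of detection in this value was not tested.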

How the results depend on the processing

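No member passed the adjusted threshold under any alternative except DESeq2 over the 5 libraries of controls and baseline, which called 2 (KLF2 and KLF15). The number of genes called, 0 in each comparison, was 5 (controls against baseline), 14 (all livers at 6 h against baseline), 1 (infused against controls) and 1 (arterial against portal) with DESeq2 over all libraries, 30, 28, 19 and 5 in the same order with no filter on low counts, 166 with DESeq2 over the controls and baseline alone, 111 with limma voom for livers at 6 h, and 1 for infused livers against controls without ischemic control 2, arterial 1, portal 1 and portal 4, which lay apart on the first principal component in an earlier analysis. With each library left out in turn it was 0 to 0 in all 4 comparisons.

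The number of members with an unadjusted p under 0.05 was 1 for controls against baseline and became 2 with DESeq2 in either form, edgeR over the groups compared, no filter, the replicate block or without those 4 libraries, 3 with voom, and 0 to 2 with each library left out. For livers at 6 h it was 1, then 2 with DESeq2, voom, no filter or without the 4 libraries, and 0 to 2 with each left out. It went from 0 for infused livers to 1 with the replicate block and 2 with voom or without the 4 libraries (0 to 1 with each left out), and from 0 for route to 2 with voom or without the 4 libraries and 1 with no filter (0 to 0 with each left out).

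Of 752 refitted fold changes of members, 716 kept direction and side of the threshold, 2 came to pass it and 34 turned direction. For controls against baseline, KLF10 turned to -0.23 with voom, and with each library left out it lay between -0.69 and 0.65, and KLF6 between -1.43 and 0.15. For livers at 6 h these ranges were -0.12 to 0.80 and -1.37 to 0.21. For infused livers KLF4 turned to -0.24 with the replicate block, and leaving out libraries gave -0.15 to 0.76 for KLF4, -0.30 to 0.45 for KLF6, -0.040 to 0.32 for KLF9, -0.11 to 1.05 for KLF10 and -1.23 to 0.064 for KLF15. For route, KLF2 turned to -0.0037 with upper quartile normalization and to -0.044 with at least 10 counts in every library (left out: -0.23 to 0.89). KLF13 turned to 0.17 with voom, 0.055 with the replicate block and 0.20 without the 4 libraries (left out: -0.21 to 0.30), and KLF15 to 1.38, 0.39 and 1.86 (left out: -0.84 to 0.98). The cause was not tested. Same-numbered libraries of different groups deviated from their group means with correlations of -0.42 to 0.43 over 16 pairs, 5 of them above 0.1. The highest were between arterial and portal libraries numbered 1, 2 and 3 (0.417, 0.290 and 0.428), whereas those numbered 4 were at -0.0964. Since not every pair exceeded 0.1 and no label ties the numbers to a litter, day or batch, they were not treated as pairs. Of 13 libraries, 5 correlated best with their own number.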

Other observations

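Of 9 further KLF genes looked up, 5 were tested. KLF3, a CtBP-dependent repressor, was the steadiest of the tested ones by range, from 1002 to 1717 normalized counts, and KLF16 ran from 188 to 891. KLF7 was between 30.9 and 185 and KLF12 between 59.3 and 269. KLF5, a factor of proliferating epithelia, had 0 to 70 reads per library, with 9.26 and 14.8 normalized counts at baseline and a 0 in portal 4. KLF1, KLF8, KLF14 and KLF17 had 2, 22, 0 and 1 reads over all 13 libraries. Of 9 SP factors, relatives with the same zinc fingers, SP1 to SP4 were tested. SP1 was lower in all 11 livers at 6 h than in both baseline libraries. These groups did not overlap for 7.27% of all genes tested, in either direction. The log2 fold change of SP1 was -1.08 (unadjusted p = 0.124 by edgeR, edgeR adjusted p = 0.860). KLF12 was higher in infused livers than in ischemic controls, at 181 against 82.1 (log2 fold change 1.08, unadjusted p = 0.0452), with overlapping groups, and at 0.88 without ischemic control 3 (unadjusted p = 0.152).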
